A study of Mus musculus with 18 samples.

Results

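The genes described here encode 9 secreted proteins of salivary and lacrimal glands: Spt1, Smr3a, Smr2, Sbpl, Dcpp1, Dcpp2, Dcpp3, Bpifa2 and Amy1. They were taken by symbol from the deposited expression tables, which list 23063 genes, and all 9 were found. Their RNA was followed in thymic epithelial cells sorted from thymi of mice aged 6 to 8 weeks, in 6 groups of 3 libraries: Aire KO mTEChi, wild-type (WT) mTEChi, Aire KO mTEClo, WT mTEClo, Aire KO cTEC and WT cTEC. cTEC are cortical and mTEC medullary thymic epithelial cells, and lo and hi name the sorted fractions of mTEC. What the fractions were gated on is not stated. The KO mice lack Aire in every tissue, not only in the thymus, and the strain is given as B6.129S2-Airetm1.1Doi/J for KO and WT samples alike. Whether the 3 libraries of a group are from different mice is not stated, so p-values measure the spread between these libraries, which may be technical.

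In the glands themselves these proteins are made in bulk by secretory cells and released into saliva or tears. The thymic medulla transcribes many genes that otherwise belong to 1 tissue, so that developing T cells meet the antigens of distant organs, and Aire is a transcriptional regulator of mature mTEC needed for much of this expression. Mice and humans without Aire develop autoimmune inflammation of several organs, and in mice the salivary and lacrimal glands are among them. Spt1 (salivary protein 1, called Mucl2 in RefSeq) is a gland secretory protein often used as an Aire-dependent antigen. Dcpp1, Dcpp2 and Dcpp3 (demilune cell and parotid protein) are close relatives from the sublingual gland, and Sbpl is related to the spermine-binding protein gene Sbp. Smr3a and Smr2 belong to a family of submaxillary gland proteins regulated by androgens. Bpifa2, the parotid secretory protein, has the lipid-binding BPI fold, and Amy1 is salivary amylase, which digests starch.

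The genes lie on 5 chromosomes (mm10). Dcpp1 (chr17:23880876-23882853), Dcpp2 (chr17:23898722-23900787), Dcpp3 (chr17:23917458-23919441) and Sbpl (chr17:23953085-23955273) are neighbours, and so are Smr3a (chr5:88002525-88008534) and Smr2 (chr5:88086556-88109053). Spt1 (chr15:103895856-103899312), Bpifa2 (chr2:154008276-154016073) and Amy1 (chr3:113555952-113577750) stand apart from the other members. The spans are whole genes, introns and untranslated regions included, and the tables hold 1 value per gene. The 100 bases before the start site of 8 of the genes are printed to show what precedes each gene. They are from RefSeq (GRCm38.p6), read 5′ to 3′ on the strand of the gene, with TATAA on that strand in capitals. All 9 genes were matched, with 10 start sites, since Amy1 has a second one. The deposited gene edge is the RefSeq start site for each gene, taking the first start of Amy1.
Spt1 chr15:103899313-103899412 (-): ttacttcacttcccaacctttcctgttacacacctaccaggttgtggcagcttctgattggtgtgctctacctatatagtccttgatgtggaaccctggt
Sbpl chr17:23955274-23955373 (-): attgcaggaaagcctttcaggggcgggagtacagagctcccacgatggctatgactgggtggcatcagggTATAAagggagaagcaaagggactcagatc
Dcpp1 chr17:23880776-23880875 (+): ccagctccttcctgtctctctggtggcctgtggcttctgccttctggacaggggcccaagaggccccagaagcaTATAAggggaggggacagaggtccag
Dcpp3 chr17:23917358-23917457 (+): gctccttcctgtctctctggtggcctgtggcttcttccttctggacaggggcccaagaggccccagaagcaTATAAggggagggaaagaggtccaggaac
Smr3a chr5:88002425-88002524 (+): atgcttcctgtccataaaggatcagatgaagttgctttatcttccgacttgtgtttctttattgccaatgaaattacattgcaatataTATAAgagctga
Smr2 chr5:88086456-88086555 (+): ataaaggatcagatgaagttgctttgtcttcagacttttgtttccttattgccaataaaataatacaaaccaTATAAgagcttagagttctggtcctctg
Bpifa2 chr2:154008176-154008275 (+): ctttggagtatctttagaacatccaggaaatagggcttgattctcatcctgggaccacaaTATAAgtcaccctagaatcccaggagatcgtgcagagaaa
Amy1 chr3:113577751-113577850 (-): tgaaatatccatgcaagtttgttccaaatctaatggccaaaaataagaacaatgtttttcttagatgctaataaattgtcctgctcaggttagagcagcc

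TATAA was found in the 100 bases before 8 of the 10 start sites and in 8 of the 9 genes, against 7.48% of 32851 mouse promoters in the same table. It began between 12 bases (Smr3a) and 63 bases (second start of Amy1) before the start site. Neither Spt1 nor the first start of Amy1 had it. Only the exact letters TATAA were sought, so the tatatag printed before Spt1 was not counted. On the opposite strand the letters read TTATA, which occurred once, overlapping the TATAA at the second start of Amy1. With either strand counted, 10.2% of all promoters held the motif. The windows of 300 bases around the start sites held 0 to 4 CG dinucleotides, against a median of 7 over all promoters, and 38.0% of all promoters held 4 or fewer. The promoters of Dcpp1 and Dcpp3 were 97.6% identical over the aligned bases, and those of Smr2 and Smr3a 90.5%.

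Levels are RPKM as deposited (aligned bases per kilobase of gene model, scaled to the library). Aligned bases on genes ran from 4.54 to 18.1 Gb per library. Aire RNA itself was 1073 ± 64.5 RPKM in KO mTEChi and 677 ± 17.9 RPKM in WT mTEChi (mean ± SD, n = 3 each, as in all values with ±). One value per gene, deleted part included, cannot check the genotype label. Markers of the populations were compared by their summed level. The level of 6 markers of mature mTEC was 7253 to 8222 RPKM in KO mTEChi and 5260 to 5593 RPKM in WT mTEChi, and it was 1267 to 1485 RPKM in KO mTEClo and 1716 to 1965 RPKM in WT mTEClo. It was 2103 to 2253 RPKM in KO cTEC and 1977 to 2065 RPKM in WT cTEC, so the cTEC libraries carried some of these genes too. Aire and Cd80 were a small part of it. They averaged 52.8 and 12.1 RPKM in KO cTEC and 4.47 and 3.75 RPKM in WT cTEC, against 677 and 77.0 RPKM in WT mTEChi. The summed level of 7 cTEC markers was 1068 to 1949 RPKM in KO cTEC and 1476 to 1971 RPKM in WT cTEC, against 70.1 to 179 RPKM in the mTEChi libraries and 646 to 944 RPKM in the mTEClo libraries. For the 5 markers of mTEC in general the summed level was lowest in mTEChi, at 501 to 560 RPKM in KO and 703 to 840 RPKM in WT. It was 2171 to 3081 RPKM in the mTEClo and 1044 to 1478 RPKM in the cTEC libraries. Single markers did not all follow the sum. In WT mTEChi 3 of the 5 were called higher and 2 lower than in WT mTEClo (limma, adjusted p under 0.05; background 41.6% and 31.1%). Against WT cTEC 3 were also higher and 2 lower (background 46.6% and 31.8%). In these bulk samples fewer cells that express a gene and less RNA per cell cannot be told apart.

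WT mTEChi was the population in which 8 of the 9 genes had their RNA, and in Aire KO mTEChi that RNA was at or near 0. The 8 genes other than Amy1 summed to 0.284, 0.501 and 0.249 RPKM in the KO mTEChi libraries and to 187.6, 191.9 and 139.3 RPKM in the WT mTEChi libraries. Spt1 made up 48.1% to 54.1% of the WT mTEChi sum. Amy1 behaved otherwise: it was highest in cTEC in both genotypes.

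**Figure D1:**
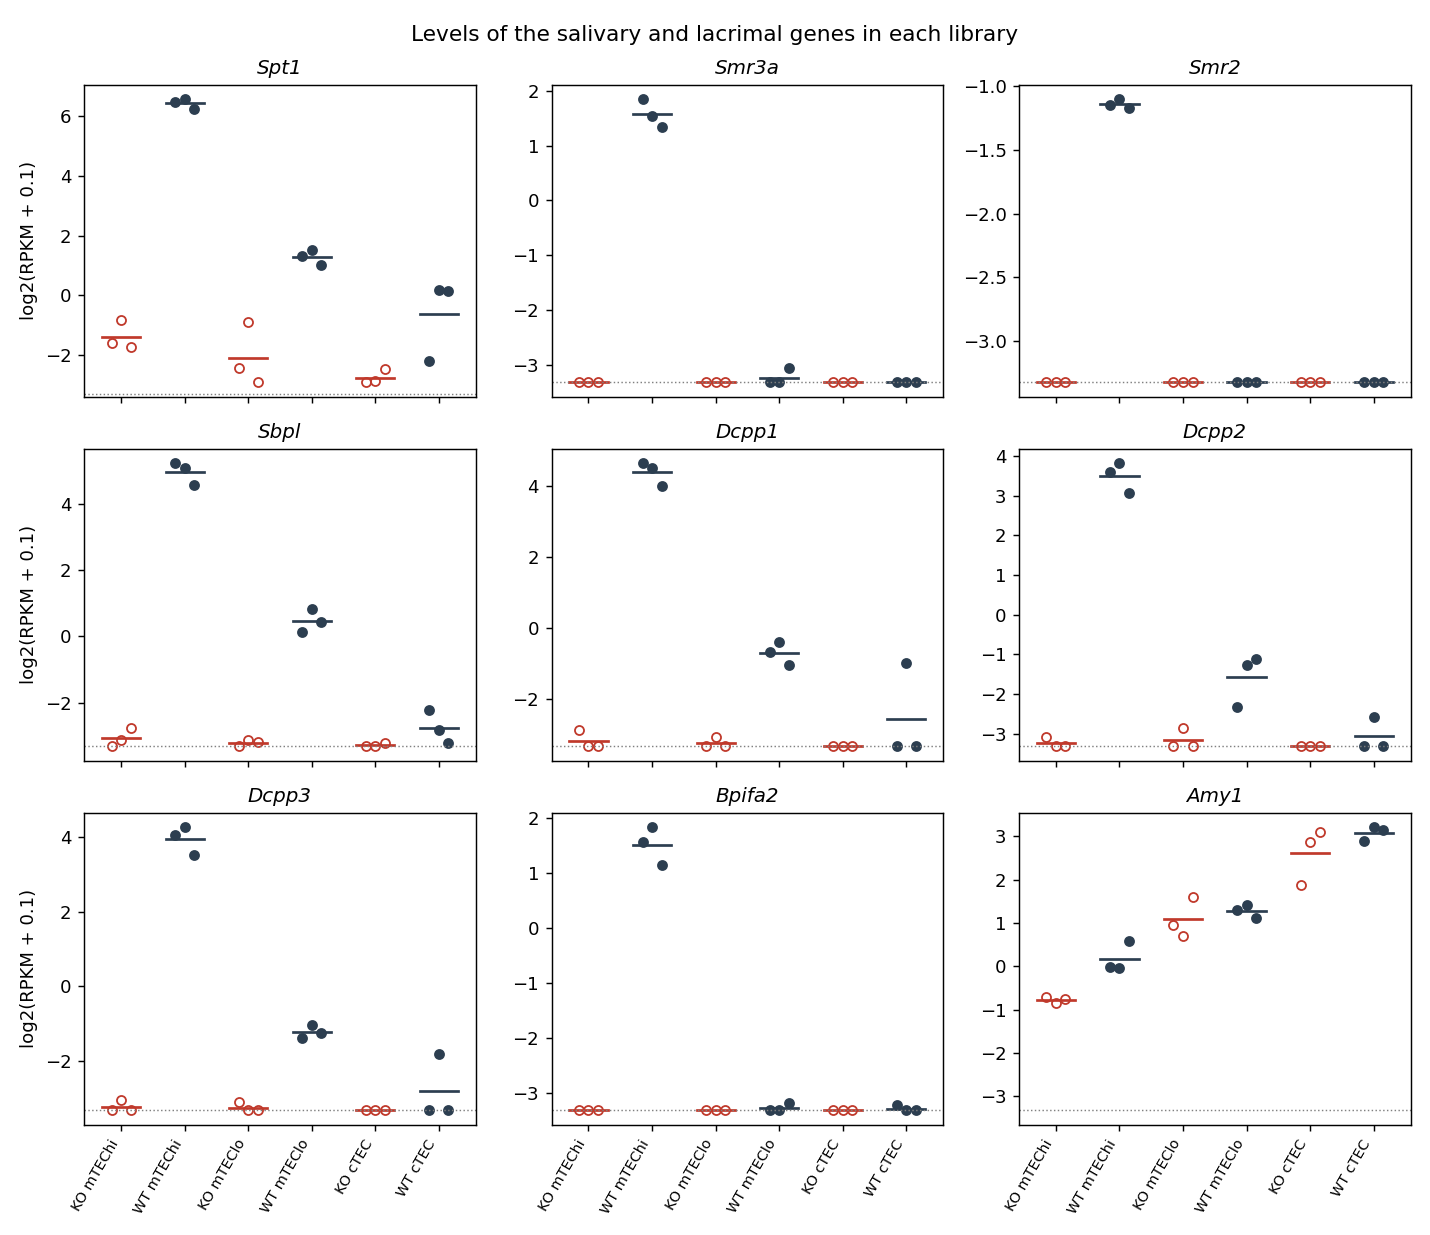
Each panel shows 1 gene, with log2(RPKM + 0.1) on the vertical axis (each panel has its own range) and the 6 groups along the horizontal axis. Points are the 3 libraries of a group (open red circles for KO, filled dark circles for WT), bars are group means, and the dotted line marks 0 RPKM. In 8 panels WT mTEChi stands above every other group, while the Amy1 panel climbs toward cTEC, where the KO libraries span 3.60 to 8.48 RPKM and the WT libraries 7.32 to 9.18 RPKM.

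Spt1 was the most abundant of the 9 genes in WT mTEChi. It measured 0.228, 0.466 and 0.201 RPKM in KO mTEChi and 90.1, 95.5 and 75.4 RPKM in WT mTEChi. The WT level lay above that of 98.0% of genes in the table. In aligned bases these were 951, 3522 and 1371 bases in KO mTEChi against 635038, 843550 and 781928 bases in WT mTEChi. All 3 KO libraries thus kept some Spt1 signal, far under the lowest WT library, with a ratio of the mean RPKM of 292-fold (lower in KO). The log2 fold change, taken on log2(RPKM + 0.1) here and below, was -7.82 (95% interval -8.99 to -6.65; limma, Benjamini-Hochberg adjusted p = 6.13e-09).

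Sbpl, the relative of the spermine-binding protein gene, came second. It measured 0, 0.0143 and 0.0476 RPKM in KO mTEChi and 37.3, 33.8 and 23.5 RPKM in WT mTEChi. Behind the KO values stood 0, 196 and 590 aligned bases, a few reads, against 442948 to 543284 bases in WT mTEChi. The groups did not overlap, and the log2 fold change was -8.03 (95% interval -8.58 to -7.48; limma, adjusted p = 8.98e-13).

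The 3 Dcpp genes followed. Dcpp1 measured 0.0373, 0 and 0 RPKM in KO mTEChi and 25.0, 22.7 and 16.05 RPKM in WT mTEChi. Dcpp3 measured 0, 0.0208 and 0 RPKM in KO mTEChi and 16.5, 19.2 and 11.3 RPKM in WT mTEChi. Dcpp2, the lowest of the 3, measured 0.0182, 0 and 0 RPKM in KO mTEChi and 11.9, 14.0 and 8.23 RPKM in WT mTEChi. Each Dcpp gene was thus listed at 0 in 2 of the 3 KO libraries, and each WT library was far above all KO libraries. The log2 fold changes were -7.56 for Dcpp1, -7.18 for Dcpp3 and -6.73 for Dcpp2 (limma, adjusted p = 7.89e-10, 2.86e-11 and 2.93e-11). The level of Dcpp3 over that of Dcpp2 was 1.38, 1.37 and 1.38 in the 3 WT mTEChi libraries, whereas Dcpp1 over Dcpp2 was 2.09, 1.62 and 1.95.

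The split of reads among these relatives is uncertain. Over the aligned bases of 1 GENCODE M21 transcript per gene, Dcpp2 and Dcpp3 were 96.9% identical, Dcpp1 and Dcpp2 92.1%, and Dcpp1 and Dcpp3 92.0%. Of the stretches of 50 bases in Dcpp1, 31.3% occurred unchanged in Dcpp2 and 34.0% in Dcpp3. Sbpl shared 39.0% of its stretches with Sbp. How the authors' counting placed reads that match several genes is not given in the sources used here. Smr2 and Smr3a shared no stretch of that length.

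Smr3a, Bpifa2 and Smr2 had lower levels in WT mTEChi than Spt1, Sbpl and the Dcpp genes, and they were listed at 0 in all 3 KO mTEChi libraries. Smr3a measured 3.50, 2.79 and 2.43 RPKM in WT mTEChi. Bpifa2 measured 2.85, 3.45 and 2.10 RPKM in WT mTEChi, close to Smr3a. Smr2, whose promoter resembles that of Smr3a, measured 0.349, 0.365 and 0.342 RPKM in WT mTEChi and was listed at 0 in the 15 other libraries. The limma adjusted p-values for KO minus WT were 3.19e-13 for Smr3a, 7.57e-13 for Bpifa2 and 4.93e-11 for Smr2. No fold is given against groups listed at 0. These 3 genes had 0.1 RPKM or more in WT mTEChi libraries alone, so they passed the filter on low values only through WT mTEChi and had to differ.

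Amy1 was the exception in size. It measured 0.514, 0.461 and 0.489 RPKM in KO mTEChi and 0.884, 0.876 and 1.40 RPKM in WT mTEChi. The groups did not overlap, but the log2 fold change was only -0.94 (95% interval -1.54 to -0.35; limma, adjusted p = 0.0082), and after quantile normalization it was 0.65, with KO above WT and adjusted p = 0.088. With a pseudocount of 1 RPKM in place of 0.1 it was -0.46 (adjusted p = 0.077). Summed over the markers of cTEC, a population rich in Amy1, KO mTEChi held 70.1 to 88.0 RPKM and WT mTEChi 137 to 179 RPKM. None of the 7 markers was at 0. Of these, 4 were called lower and 1 higher, near the 52.8% lower and 9.57% higher over all genes tested. After quantile normalization 3 were lower and 1 higher, with 24.7% and 31.2% over all genes. The part of cTEC RNA in the Amy1 difference was not tested.

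In all, 9 of 9 genes were called lower in KO mTEChi (limma, adjusted p under 0.05), against 52.8% of the 19451 genes tested, while 9.57% of all genes were called higher. Of the 6 genes that passed the filter without WT mTEChi (Spt1, Sbpl, Dcpp1, Dcpp2, Dcpp3 and Amy1), all 6 were lower. The median log2 fold change of the 9 was -6.73, against -0.39 over all genes tested. Members at 0 enter that median through the added 0.1, so it is no bound. Quantile normalization moved the median of all genes to 0.08 and the calls to 24.7% lower and 31.2% higher (4808 and 6064 genes, against 10269 and 1862 on the deposited scale). Under it 8 of the 9 genes were still lower, all but Amy1, with Smr2 at -0.38 on the fitted scale.

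**Figure D2:**
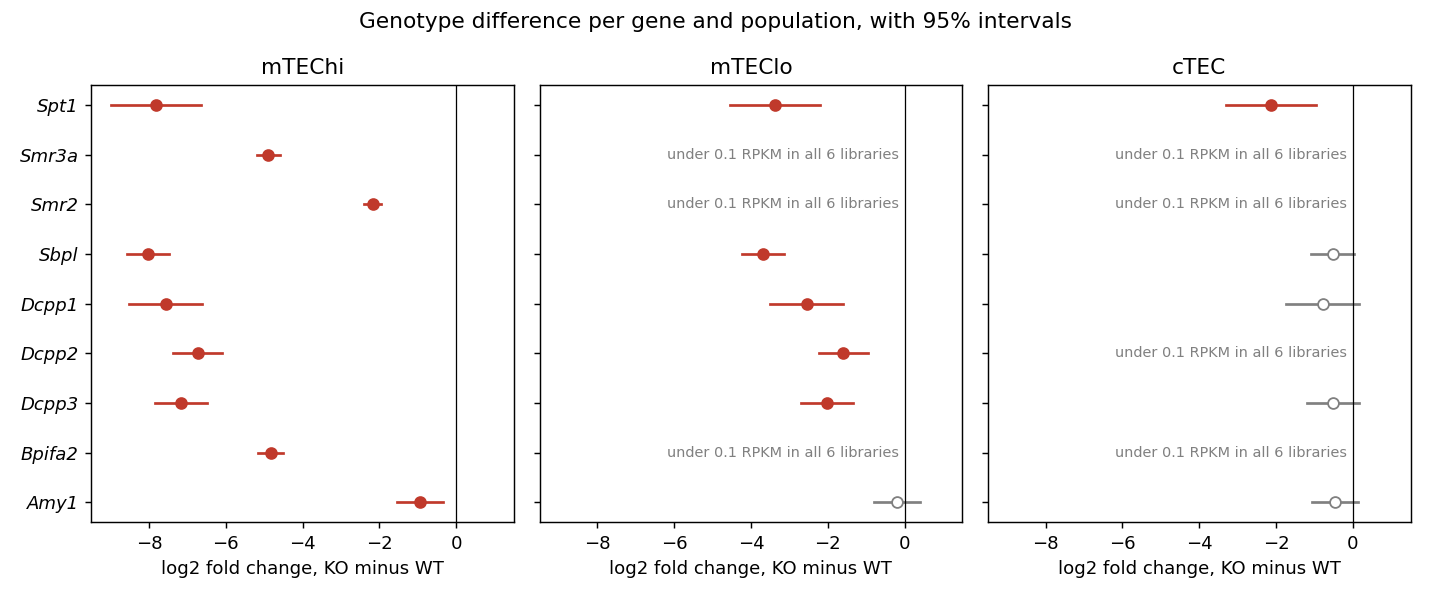
The 3 panels show mTEChi, mTEClo and cTEC, with the log2 fold change (KO minus WT, on log2(RPKM + 0.1)) on the horizontal axis and the 9 genes down the page. Points are estimates from the limma model and lines their 95% intervals, filled red where adjusted p was under 0.05 and open grey where not, and genes under 0.1 RPKM in all 6 libraries of a panel carry no point. Spt1 lies at -7.82 in mTEChi, -3.37 in mTEClo and -2.14 in cTEC, and Amy1 stays nearest to 0 in mTEChi, at -0.94.

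In mTEClo Spt1, Sbpl and the 3 Dcpp genes were present at a low level in WT, and these 5 of the 9 were called lower in KO. The background was 8.04% of genes lower and 7.93% higher, and 19.8% lower and 5.15% higher after centring on housekeeping genes. Spt1 measured 0.0824, 0.431 and 0.0341 RPKM in KO mTEClo and 2.38, 2.76 and 1.94 RPKM in WT mTEClo. Sbpl measured 0, 0.0140 and 0.00947 RPKM in KO mTEClo and 1.01, 1.66 and 1.25 RPKM in WT mTEClo. For both genes every KO library was under every WT library. The log2 fold change was -3.37 for Spt1 and -3.68 for Sbpl (limma, adjusted p = 9.80e-04 and 1.43e-06), and the ratio of the mean Spt1 RPKM was 12.9-fold, lower in KO.

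The Dcpp genes were also lower in KO mTEClo. Dcpp1 measured 0, 0.0198 and 0 RPKM in KO mTEClo and 0.530, 0.670 and 0.388 RPKM in WT mTEClo, with a log2 fold change of -2.54 (limma, adjusted p = 0.0016). Dcpp3 measured 0.0163, 0 and 0 RPKM in KO mTEClo and 0.284, 0.392 and 0.318 RPKM in WT mTEClo, with a log2 fold change of -2.03 (adjusted p = 7.48e-04). Dcpp2 measured 0, 0.0392 and 0 RPKM in KO mTEClo and 0.101, 0.314 and 0.363 RPKM in WT mTEClo, with a log2 fold change of -1.60 (adjusted p = 0.0025). At these levels the added 0.1 sets much of the fold change, and with 1 RPKM added Dcpp2 missed the threshold (-0.31, adjusted p = 0.11). The other 4 genes were not called: Amy1 measured 1.83, 1.53 and 2.93 RPKM in KO mTEClo and 2.38, 2.58 and 2.07 RPKM in WT mTEClo, which overlapped (-0.20, adjusted p = 0.70). Smr3a, Smr2 and Bpifa2 were under 0.1 RPKM in all 6 mTEClo libraries, with Smr3a at 0.0203 RPKM and Bpifa2 at 0.00934 RPKM in 1 WT library each and 0 elsewhere.

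The genotype difference was larger in mTEChi than in mTEClo on this scale for 8 of the 9 genes, by the interaction term of the model (limma, adjusted p under 0.05), where 40.9% of all genes were called in that direction and 6.01% in the other. After quantile normalization that balance turned, to 18.3% and 23.4%, and centring on housekeeping genes gave 28.0% and 13.3%. The count includes Smr3a, Smr2 and Bpifa2, which passed the filter only through WT mTEChi and were near 0 in mTEClo, so their terms were fixed by the mTEChi difference. The term was -4.45 for Spt1 (adjusted p = 2.20e-04), -4.35 for Sbpl (1.37e-07) and -5.02 for Dcpp1 (9.54e-06). A gene that is low in WT mTEClo can fall only as far as the added 0.1 allows, which limits its fold change there. For Amy1 the term was -0.74 (95% interval -1.59 to 0.10; adjusted p = 0.14), and after quantile normalization it was 0.89.

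In cTEC only Spt1 was called, 1 of the 9 genes lower, with 6.76% of all genes lower and 13.3% higher (11.1% and 11.4% after quantile normalization, 15.8% and 10.5% after centring on housekeeping genes). Spt1 measured 0.0316, 0.0357 and 0.0780 RPKM in KO cTEC and 0.117, 1.02 and 1.01 RPKM in WT cTEC. No KO library reached the lowest WT library, which was itself far below the other WT libraries. The log2 fold change was -2.14 (limma, adjusted p = 0.012). The call was lost without WT cTEC replicate 2 (-1.74, adjusted p = 0.051), without WT cTEC replicate 3 (-1.75, adjusted p = 0.059) and when only the 6 cTEC libraries were fitted (adjusted p = 0.20). In that last fit the background fell as well, to 6 genes lower and 12 higher of 19451. The fit over all 18 libraries had called 1315 lower and 2593 higher.

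The Dcpp genes showed which WT cTEC library carried them. Dcpp1, Dcpp3 and Dcpp2 stood at 0.405, 0.187 and 0.0686 RPKM in WT cTEC replicate 2 and were listed at 0 in both other WT cTEC libraries and in all 3 KO cTEC libraries. Sbpl, in contrast, was highest in replicate 1, at 0.113 RPKM, with 0.0404 RPKM in replicate 2 and 0.00841 RPKM in replicate 3, against 0, 0 and 0.00801 RPKM in KO cTEC. Aire RNA was 2.09, 3.95 and 7.39 RPKM in WT cTEC replicates 1, 2 and 3, and 27.0 to 95.6 RPKM in KO cTEC. In KO cTEC 3 of the 6 mature mTEC markers were called higher than in WT cTEC, and their part in these values was not tested. Amy1 measured 3.60, 7.19 and 8.48 RPKM in KO cTEC and 7.32, 9.18 and 8.70 RPKM in WT cTEC, which overlapped (-0.46, limma adjusted p = 0.27).

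Within WT mice, 8 of the 9 genes were higher in mTEChi than in mTEClo and Amy1 was lower, with a background of 41.6% of genes higher and 31.1% lower (29.6% and 39.3% after quantile normalization, which left the calls of the 9 genes as they were). Spt1 averaged 87.0 ± 10.4 RPKM in WT mTEChi and 2.36 ± 0.408 RPKM in WT mTEClo, a log2 fold change of 5.15 (limma, adjusted p = 4.33e-07). For Sbpl and the 3 Dcpp genes it lay between 4.49 and 5.17. Amy1 averaged 1.05 ± 0.302 RPKM in WT mTEChi and 2.34 ± 0.253 RPKM in WT mTEClo (-1.11, adjusted p = 0.0022). Against WT cTEC the same 8 genes were higher in WT mTEChi and Amy1 was lower, with a background of 46.6% higher and 31.8% lower (32.6% and 42.8% after quantile normalization). The share of members called in these WT comparisons included the 3 genes that passed the filter through WT mTEChi.

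Between WT mTEClo and WT cTEC, 5 genes were higher in mTEClo (Spt1, Sbpl and the 3 Dcpp genes) and Amy1 was lower, with a background of 24.6% higher and 18.2% lower (20.2% and 24.2% after quantile normalization, 18.4% and 27.1% after centring on housekeeping genes). Sbpl averaged 1.31 ± 0.330 RPKM in WT mTEClo and 0.0540 ± 0.0537 RPKM in WT cTEC (log2 fold change 3.22; limma, adjusted p = 1.04e-07). Spt1 was 1.91 higher on the log2 scale (adjusted p = 0.010), which was lost without WT cTEC replicate 1 (1.12, adjusted p = 0.055) and with the compared groups alone (adjusted p = 0.080). Dcpp1 was 1.85 higher (adjusted p = 0.0032), although its WT cTEC replicate 2 overlapped the mTEClo libraries, and it was lost with the compared groups alone (adjusted p = 0.086). Dcpp2 was lost with a pseudocount of 1 RPKM (0.29, adjusted p = 0.075).

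In KO mice only Amy1 was called between mTEChi and mTEClo. Of the 8 other genes 0 were called by limma and 0 had an unadjusted p under 0.05, while 23.4% of all genes were higher and 43.7% lower (29.3% and 33.7% after quantile normalization, 29.2% and 34.5% after centring on housekeeping genes). All of the 8 but Spt1 were under 0.1 RPKM in every KO mTEChi and KO mTEClo library, at most 0.0476 RPKM (Sbpl). They thus had little room for a call, and the 0 of 8 says little beyond Spt1. Spt1 averaged 0.298 ± 0.145 RPKM in KO mTEChi and 0.182 ± 0.216 RPKM in KO mTEClo, a log2 fold change of 0.70 (95% interval -0.47 to 1.87; limma, adjusted p = 0.28). The KO mTEClo value rested on replicate 2, at 0.431 RPKM. Without that library Spt1 was 1.29 higher in KO mTEChi (adjusted p = 0.047). Against KO cTEC, Spt1 was higher in KO mTEChi (1.38, adjusted p = 0.036; background 26.6% higher and 41.2% lower), a call lost without any of 4 libraries in turn (KO cTEC replicate 1 or 2, KO mTEChi replicate 1 or 2).

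Amy1 kept its order of populations in both genotypes. In KO it averaged 0.488 ± 0.0266 RPKM in mTEChi, 2.10 ± 0.738 RPKM in mTEClo and 6.42 ± 2.53 RPKM in cTEC. In WT the means were 1.05 ± 0.302, 2.34 ± 0.253 and 8.40 ± 0.967 RPKM in the same order. KO mTEChi was lower than KO mTEClo (-1.85, limma adjusted p = 2.18e-05) and than KO cTEC (-3.39, adjusted p = 2.26e-08). WT mTEChi was lower than WT cTEC (-2.90, adjusted p = 9.33e-08), and WT mTEClo was lower than WT cTEC (-1.80, adjusted p = 8.05e-05). The 2 other amylase genes listed did not exceed 0.0433 RPKM summed in any library, and Amy1 shared 1.76% of its stretches of 50 bases with Amy2a5, a pancreatic amylase gene.

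The genes whose pattern over the 18 libraries was most like that of a member were sought among 17172 tested genes, by the root mean square difference of centred log2(RPKM + 0.1), where smaller is closer. Dcpp3 was closest to its neighbours Dcpp1 (0.32) and Dcpp2 (0.34), and Spt1, on another chromosome, was closest to Dcpp1 (0.80) and Dcpp3 (0.91). Sbpl was closest to Ppy (0.33), the gene of pancreatic polypeptide, and to Gip (0.69), that of an incretin hormone of the gut. Dcpp1 was closest to Dcpp3 and then to Crabp1 (0.52), a retinoic acid-binding protein, while Dcpp2 had Defb19 (0.33), a beta-defensin, and Lcn10 (0.34), a lipocalin, before its neighbours. The neighbours Smr3a and Smr2 differed by 1.01 and were not among each other's closest genes. Both were at or near 0 RPKM outside WT mTEChi. The 1.01 thus reflects their levels in WT mTEChi (means of 2.91 and 0.352 RPKM) and the added 0.1. For Smr3a, Smr2 and Bpifa2, which passed the filter only through WT mTEChi, closeness mainly marks a like level in that group. Smr3a had Cma2 (0.11) as its second, Bpifa2 was closest to Defb22 (0.10) and Fgf4 (0.11), and Smr2 to Mup3 and Cypt2 (both 0.048). Amy1 was closest to Aldh6a1 (0.27), an enzyme of valine breakdown, and Xdh (0.28), xanthine dehydrogenase. Aldh6a1 averaged 2.94 RPKM in KO mTEChi, 4.78 RPKM in WT mTEChi, 39.6 RPKM in KO cTEC and 46.4 RPKM in WT cTEC.

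Other gland genes were also lower in KO mTEChi. Of 15 further salivary acinar and mucous genes tested, 11 were lower and 0 higher, with a median log2 fold change of -1.99 (7 lower and a median of -0.64 after quantile normalization). Over all genes 52.8% were lower on the deposited scale and 24.7% after quantile normalization, the background for each list that follows. For 6 of the 15, Cst10 among them, the filter was passed only through WT mTEChi, as for 8.98% of all genes tested. Of the 9 others, 6 were lower on the deposited scale. Cst10, a cystatin, averaged 0.00538 ± 0.00932 RPKM in KO mTEChi and 5.85 ± 0.888 RPKM in WT mTEChi (limma, adjusted p = 2.74e-11). Lpo, lactoperoxidase of saliva and tears, was the highest of the list and was not called, at 69.4 ± 4.999 RPKM in KO mTEChi and 106 ± 9.58 RPKM in WT mTEChi (-0.61, adjusted p = 0.11). Its libraries did not overlap, at 63.7 to 72.9 RPKM in KO mTEChi and 96.1 to 115 RPKM in WT mTEChi. The model takes the spread over all 6 groups, and KO cTEC ran from 4.34 to 16.6 RPKM. Fut2, a fucosyltransferase of mucous secretions, was not called either (-0.33, adjusted p = 0.47).

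Among 17 growth factors and kallikreins of the salivary ducts, which passed the filter without WT mTEChi as well, 16 were lower and 0 higher, with a median of -2.81 (15 lower after quantile normalization). Klk1, tissue kallikrein, averaged 7.23 ± 3.31 RPKM in KO mTEChi and 52.4 ± 6.63 RPKM in WT mTEChi (-2.94, limma adjusted p = 7.82e-04). Klk1b22 averaged 0.474 ± 0.312 RPKM in KO mTEChi and 11.5 ± 2.87 RPKM in WT mTEChi (-4.44, adjusted p = 2.35e-05). The smallest fall was that of Klk1b11, at 15.8 ± 3.22 RPKM in KO mTEChi and 31.6 ± 4.07 RPKM in WT mTEChi (-1.01, adjusted p = 0.0014). The Klk1b genes are close paralogs, so their single values are uncertain.

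Of 10 lacrimal and tear genes tested, 8 were lower and 0 higher (median -2.50), as after quantile normalization (8 lower), and 3 of the 10, Lcn11 among them, passed the filter only through WT mTEChi. Of the 7 others, 5 were lower on the deposited scale. Wfdc18, a secreted protein with a WAP domain, was the highest, at 121 ± 17.2 RPKM in KO mTEChi and 452 ± 67.6 RPKM in WT mTEChi (-1.90, limma adjusted p = 7.64e-05). Lcn11, a lipocalin, averaged 0.00723 ± 0.0125 RPKM in KO mTEChi and 5.82 ± 1.03 RPKM in WT mTEChi (adjusted p = 7.59e-08). Lyz2, a lysozyme that macrophages also make, averaged 349 ± 16.7 RPKM in KO mTEChi and 321 ± 14.9 RPKM in WT mTEChi and was not called (0.12, adjusted p = 0.74; -0.19 after quantile normalization). The 8 markers of dendritic cells and macrophages summed to 407 to 440 RPKM in KO mTEChi and 362 to 390 RPKM in WT mTEChi, with 4 called lower, 2 higher (median -0.50) and none at 0, and their part in these values was not tested.

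Of the 14 other BPI fold genes, relatives of Bpifa2, 14 were lower in KO mTEChi (median -3.999; 12 lower after quantile normalization). For 8 of them, Bpifb3 among these, the filter was passed only through WT mTEChi, so they had to differ, and the 6 others were lower too. Bpifa1, a protein of airway secretions, averaged 17.4 ± 10.9 RPKM in KO mTEChi and 156 ± 6.04 RPKM in WT mTEChi (-3.32, limma adjusted p = 8.83e-07). Bpifb3 averaged 0.0189 ± 0.0273 RPKM in KO mTEChi and 6.28 ± 0.0202 RPKM in WT mTEChi (-5.77, adjusted p = 2.94e-13). Bpi itself, an antibacterial protein of neutrophils, was at 0.169 ± 0.0257 RPKM in KO mTEChi and 0.655 ± 0.148 RPKM in WT mTEChi (-1.48, adjusted p = 5.33e-05), and its change was 0.30 after quantile normalization. In mTEClo each of these 4 lists, with 10 to 17 genes tested, had 1 or 2 genes called lower and 1 or 2 called higher. These counts were near the background there, 8.04% of genes lower and 7.93% higher.

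**Figure D3:**
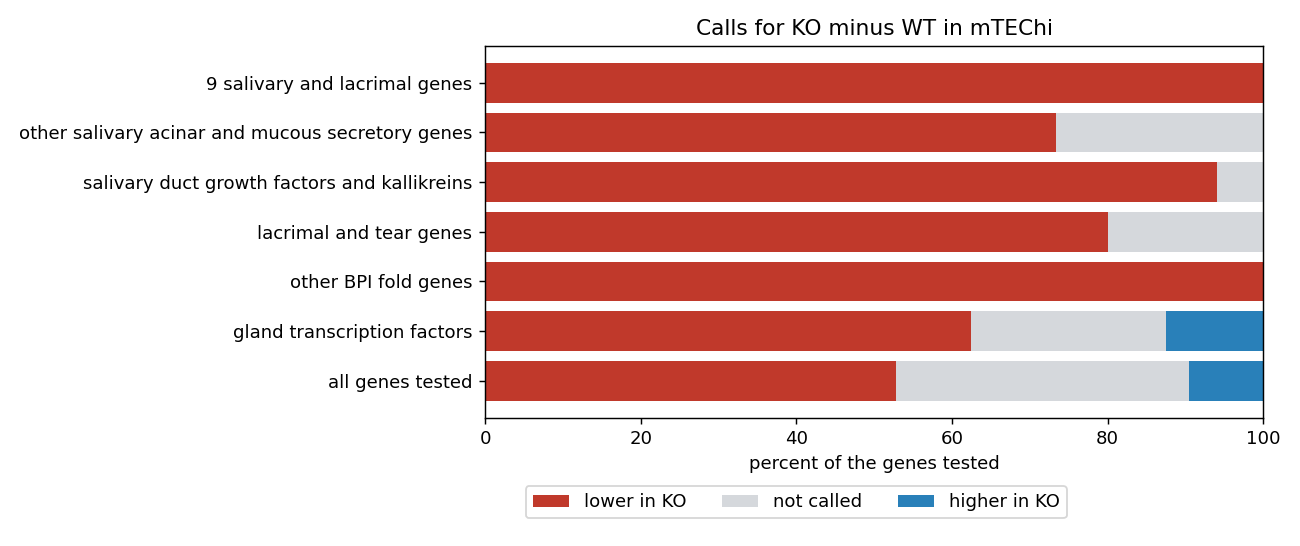
Bars show, for each list and for all 19451 genes tested, the percent of tested genes called lower (red), not called (grey) and called higher (blue) for KO minus WT in mTEChi (limma, adjusted p under 0.05). The 9 genes and the other BPI fold genes are wholly lower, and for all genes 52.8% are lower and 9.57% higher.

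The neighbours of the members were examined within 100 kb, where 20 other genes were listed. Of these, 15 were lower in KO mTEChi and 0 higher (11 lower and 1 higher after quantile normalization). In mTEClo 1 was lower and 0 higher, with a background of 8.04% of genes lower and 7.93% higher. In cTEC 0 were lower and 5 higher, all 5 on chromosome 17, with a background of 6.76% lower and 13.3% higher. Over all genes 52.8% were lower in KO mTEChi (24.7% after quantile normalization), and 7 of the 20 passed the filter only through WT mTEChi. Of the 13 other neighbours, 9 were lower in KO mTEChi. The chromosome 17 stretch, which runs from Flywch2 to Kctd5, held 12 of the 20, and 10 were lower (6 after quantile normalization), with 1 that passed only through WT mTEChi. Sbp, which lies between Dcpp3 and Sbpl and encodes the spermine-binding protein, averaged 0.0209 ± 0.0179 RPKM in KO mTEChi and 11.04 ± 1.31 RPKM in WT mTEChi (-6.53, limma adjusted p = 4.47e-10).

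Broadly expressed neighbours differed by less than Sbp. Srrm2, a splicing factor gene, averaged 114 ± 16.3 RPKM in KO mTEChi and 99.9 ± 10.95 RPKM in WT mTEChi (0.19, limma adjusted p = 0.17). Tceb2, an elongin subunit, was 0.19 lower on the log2 scale (adjusted p = 0.044), and the call was lost when libraries were centred on housekeeping genes (-0.06, adjusted p = 0.45). Flywch2 (-0.64, adjusted p = 9.51e-04) and Kctd5 (-0.59, adjusted p = 4.40e-05), with RNA in all 6 groups, were also called lower. After quantile normalization Kctd5 stayed lower (-0.35, adjusted p = 0.0050) and Flywch2 lost the call (-0.30, adjusted p = 0.092).

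The 7 serine protease genes of the stretch did not share 1 pattern over the populations. Prss33 averaged 0.443 ± 0.0539 RPKM in KO mTEChi, 1.67 ± 0.156 RPKM in WT mTEChi, 15.9 ± 3.07 RPKM in KO mTEClo and 10.8 ± 0.455 RPKM in WT mTEClo. It was thus lower in WT mTEChi than in WT mTEClo (-2.62, limma adjusted p = 1.71e-08), the opposite of the Dcpp genes beside it. Prss41 was also lower in WT mTEChi than in WT mTEClo (-1.72, adjusted p = 3.90e-04). Prss32 (1.61) and Prss30 (2.47) were higher in WT mTEChi, as the Dcpp genes were, and Prss22 (0.23) and Prss27 (-0.04) were not called. Prss21 was also higher (1.77), but it passed the filter only through WT mTEChi, so its call was bound to come out this way. For KO minus WT in mTEChi, Prss32 (-3.13), Prss22 (-2.93) and Prss27 (-2.84) were called lower, also after quantile normalization (-1.90, -2.53 and -2.54). Prss33 (-1.71) and Prss21 (-1.77) were called lower but lost the call after it, and Prss30 was not called. Prss41 was at -1.05 (adjusted p = 0.017) on the deposited scale and at 0.68 after quantile normalization (adjusted p = 0.12).

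**Figure D4:**
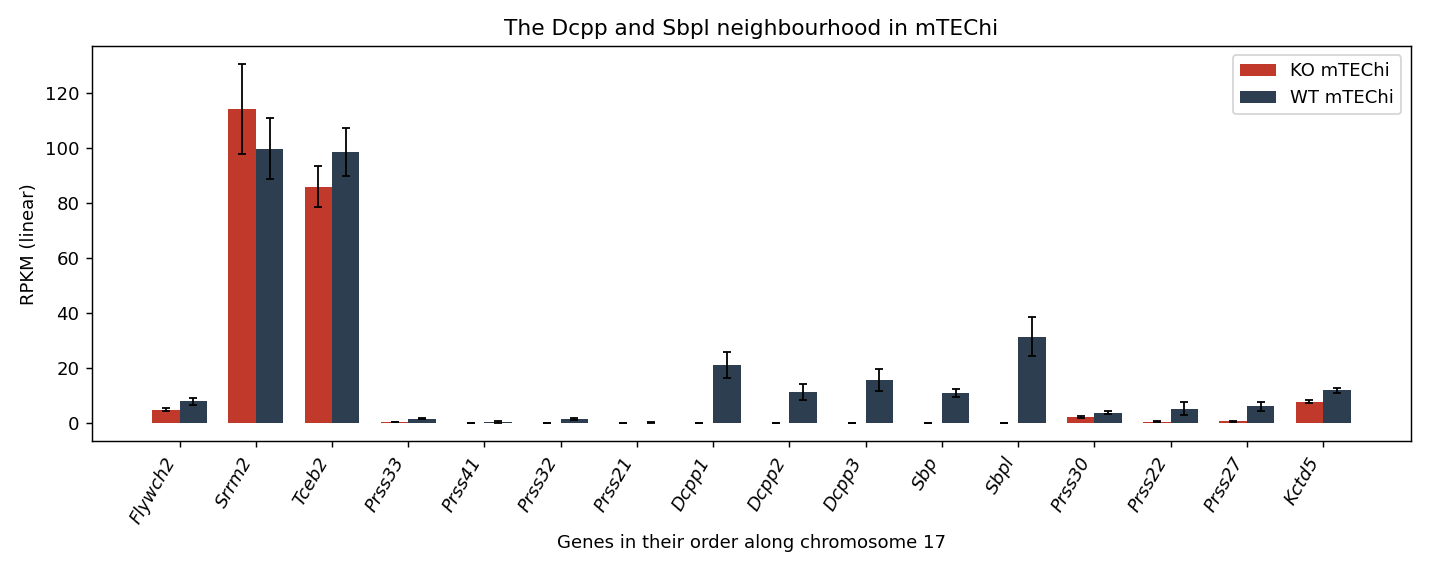
The 16 listed genes of the chromosome 17 stretch stand in their order along the chromosome (not to scale), with mean RPKM in mTEChi on a linear vertical axis, KO in red and WT in dark blue. Error bars are the SD over 3 libraries. The Dcpp genes, Sbp and Sbpl show WT bars of 11.04 to 31.6 RPKM with KO bars too low to see, while Srrm2 and Tceb2 exceed 80 RPKM in both genotypes.

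Elsewhere the neighbourhoods differed. The 4 BPI genes within 100 kb of Bpifa2 (Bpifb6, Bpifb3, Bpifb4 and Bpifa6) were all lower in KO mTEChi, by fitted log2 fold changes of -3.77 to -5.77, and all 4 were higher in WT mTEChi than in WT mTEClo. All 4 passed the filter on low values only through WT mTEChi, so both calls were bound to come out this way. Near Smr3a and Smr2, Cabs1, which also passed only through WT mTEChi, was lower (adjusted p = 1.25e-06), whereas the casein gene Csn3 was not called, at 1.24 ± 0.243 RPKM in KO mTEChi and 3.01 ± 0.172 RPKM in WT mTEChi (-1.23, limma adjusted p = 0.082). Of these 2 and 1700066N21Rik, the third gene there, Csn3 alone was called higher in KO mTEChi than in KO mTEClo (2.50, adjusted p = 0.0014). Rnpc3, a spliceosome gene beside Amy1, averaged 8.78 ± 0.757 RPKM in KO mTEChi and 9.29 ± 0.291 RPKM in WT mTEChi and was not called (-0.08, adjusted p = 0.56). No other listed gene lay within 100 kb of Spt1.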

How the data were processed

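Per the labels' protocols, stroma of disrupted and digested thymi was sorted by flow cytometry and total RNA was sequenced from Illumina libraries. CASAVA 1.8.2 and the build mm10 are named in the submitters' processing notes, while the sources used here name neither annotation nor counting settings. The authors deposited 1 table per library with RPKM and, per gene, a signal in summed aligned bases. Of low base sums (up to 2000), 12.0% were whole multiples of 100, so whole reads were not recovered and no count test was run.

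From the deposited RPKM, log2(RPKM + 0.1) was fitted with limma 3.58.1 (R 4.3.3, trended empirical Bayes) to 6 group means over all 18 libraries, for the 19451 genes that reached 0.1 RPKM in 3 or more libraries. Calls are at a Benjamini-Hochberg adjusted p under 0.05 over those genes. Each gene has a single estimate of spread for all 6 groups, so a wide spread in some groups can hide a difference between others. The model was tested on simulated data. The alternatives were quantile normalization, centring on 12 housekeeping genes, pseudocounts of 0.01 and 1, no filter and a filter at 1 RPKM, the compared groups alone, a replicate block, and leaving out each library.

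Of each list the text names the gene highest in WT mTEChi and those with the largest fall and the largest rise (or smallest fall), and of each member the 2 genes of closest pattern, without predicted genes. The closest gene of 1 member is not reported here. Neighbours are counted in full and the examples were picked after their values were seen. Mir3110, listed in more than 1 place, was left out of them. The members and lists were chosen with earlier results of these data known. Sequences were compared with Biopython 1.88.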

Additional observations from a re-analysis of the deposited data

Results flagged for a closer look

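The genotype difference (KO minus WT) was not the same in mTEChi and mTEClo for 8 genes, by the interaction term of the limma model with adjusted p under 0.05, which is why they are listed here. On the log2(RPKM + 0.1) scale the term, mTEChi minus mTEClo, was -4.45 for Spt1, -4.35 for Sbpl, -5.02 for Dcpp1, -5.14 for Dcpp2 and -5.15 for Dcpp3. It was -4.81 for Smr3a, -2.18 for Smr2 and -4.79 for Bpifa2, which were under 0.1 RPKM in mTEClo of both genotypes, so that for them the term repeats the mTEChi difference and depends on the added 0.1.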

How the results depend on the processing

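Over all alternatives, 829 values for single genes kept their direction and their side of the threshold, 15 kept their direction and lost the call, 2 gained it and 2 changed sign. Both sign changes were those of Amy1 after quantile normalization, for KO minus WT in mTEChi (0.65) and for the interaction with mTEClo (0.89), and the cause was not tested. The number of the 9 genes called stayed within 1.5 times in 121 cases and moved in 11. For KO mTEChi against KO cTEC (2 called) it was 1 after quantile normalization, 1 with a pseudocount of 1 RPKM, and 1 to 2 when libraries were left out. For KO minus WT in cTEC (1 called) it was 2 with a pseudocount of 0.01, where Sbpl joined (-1.996, adjusted p = 0.046), 0 with the compared groups alone (1 gene at unadjusted p under 0.05, limma), and 0 to 1 when libraries were left out. For KO mTEChi against KO mTEClo (1 called) it was 1 to 2 when libraries were left out. A filter at 1 RPKM left Smr2 untested. The values do not settle whether replicate numbers pair the libraries. After group means were removed, same-numbered libraries had a median correlation of 0.0065 (from -0.30 to 0.21 over 45 pairs). Libraries of other numbers had -0.0039 (from -0.20 to 0.27 over 90 pairs), while 10 of 18 libraries correlated best with their own number. With a replicate block 9 genes were lower in KO mTEChi and 5 in KO mTEClo, as without it, and no count of called genes moved. Values under 0.1 RPKM rest on few reads, which limits every fold change against them.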

Other observations

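Transcription factors of salivary and lacrimal gland development and secretion were measured as well. Of 16 such genes 10 were lower and 2 higher in KO mTEChi (limma, adjusted p under 0.05), with a median log2 fold change of -0.89 and with 2 of the 16 that passed the filter only through WT mTEChi, against 52.8% lower and 9.57% higher over all genes. Among the 14 that passed without WT mTEChi, 8 were lower and 2 higher. After quantile normalization 7 of the 16 were lower and 4 higher. Foxi1, a factor of ion-transporting duct cells, averaged 0.101 ± 0.0952 RPKM in KO mTEChi and 5.37 ± 0.685 RPKM in WT mTEChi (-4.87, adjusted p = 7.28e-08). Ehf, an epithelial Ets factor and the highest of the list, averaged 29.8 ± 1.75 RPKM in KO mTEChi and 44.2 ± 2.58 RPKM in WT mTEChi and was not called (-0.57, adjusted p = 0.11). Hmx3, a homeobox gene, rose in KO mTEChi, to 16.9 ± 0.805 RPKM against 5.66 ± 0.741 RPKM in WT mTEChi (1.57, adjusted p = 3.47e-04), and stayed higher after quantile normalization (1.88).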
